A study of Rattus norvegicus with 12 samples.

Results

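Rat islets exposed to a high fat and sucrose diet only through the dam were compared, across all genes, with islets exposed to it only through the animal's own diet after weaning. The libraries were chosen by their titles, and they are 6 of the 12 in the series, 3 in each group. All animals were offspring of Sprague-Dawley rats. GDM-LF is the group of offspring whose dams ate the high fat and sucrose diet (45% fat) from 6 weeks before mating through pregnancy and suckling, and which were themselves weaned onto a low fat diet. Lean-HFS is the reverse: the dams ate the low fat diet (10% fat), and the offspring were weaned onto the high fat and sucrose diet. The weaning diets lasted 12 weeks, and the animals were 15 weeks old when their islets were collected. Lean-LF, with low fat diet in dam and offspring, is the control of both exposures. GDM-HFS, with high fat and sucrose diet in both, enters the fit, and its values are given after the comparison. The labels use GDM, for gestational diabetes mellitus, for the high fat and sucrose dams, of which there were 6 per diet, with litters cut to 8 pups. The sex and litter of the animals, and whether a library is 1 animal or a pool, are not stated in the labels. The p-values therefore measure only the spread between these libraries.

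Islets are clusters of endocrine cells, mostly insulin-secreting beta cells, together with alpha, delta and PP cells, blood vessels and a few resident macrophages. Beta cells sense glucose by taking it up and metabolising it, which closes potassium channels, opens calcium channels and releases insulin granules through a vesicle fusion machinery shared with neurons. Inflammatory signals act on these cells through the transcription factor NF-kB, which switches on chemokines, cytokines and its own inhibitors, and interferons act through STAT and IRF factors. A maternal diet can reach the offspring during islet formation and suckling, whereas a weaning diet acts on islets that are already formed.

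The 3 GDM-LF libraries held 13967330, 21345209 and 18248510 gene reads, and the 3 Lean-HFS libraries 17485547, 17426884 and 13716837. Ribosomal RNA (rRNA) made up 8.55, 8.35 and 6.999% of these reads in GDM-LF and 39.0, 31.3 and 24.7% in Lean-HFS. The groups did not overlap in this share (two-sided exact permutation test over 20 splits, p = 0.1, the smallest that 3 against 3 libraries allow). It differed as widely inside Lean-LF, at 11.3, 30.4 and 1.84%, but between GDM-LF and Lean-HFS the share and the exposure cannot be told apart. Short transcripts stood higher relative to long ones in GDM-LF. The measure was the median log2 deviation of transcripts under 1000 bases less that of transcripts over 4000 bases, and it was -0.07, 0.56 and 0.14 in GDM-LF and -0.31, -0.10 and -0.18 in Lean-HFS (exact permutation p = 0.1). Insulin transcripts took 30.3, 21.98 and 34.4% of reads outside rRNA in GDM-LF and 32.2, 32.5 and 28.5% in Lean-HFS, so all 6 libraries carried the defining islet product and the groups overlapped. GDM-LF 2 stood apart from the other libraries of its group: digestive enzyme genes of pancreatic acinar cells averaged 12.7 there on the log2 scale, against 9.01 and 8.76 in GDM-LF 1 and 3. Lean-HFS 3, at 11.2, was the highest of its group in the same genes. The titles of GDM-LF 1 and 2, and of 1 GDM-HFS library, carry a letter K where the others carry a G, and the labels do not say what the letters mark. Fits with the G libraries only, which leave GDM-LF 3 alone in its group and assume that it varies like the others, are given beside the main lists. In bulk tissue, fewer cells of a type and less RNA per cell cannot be told apart.

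**Figure D1:**
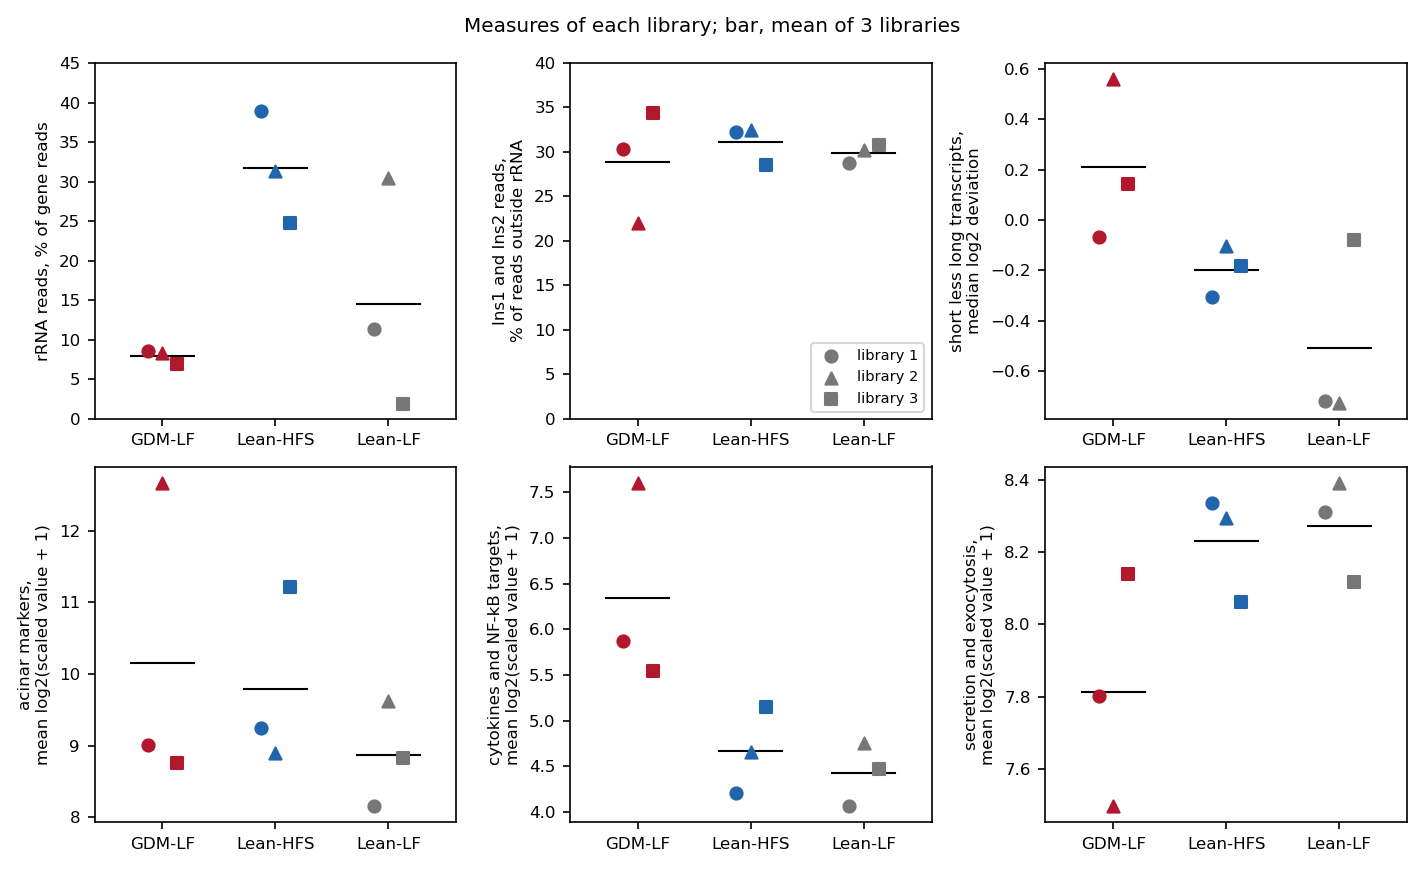
Measures of each library in GDM-LF, Lean-HFS and the control group Lean-LF, as points for libraries 1 to 3 with the group mean as a bar. The rRNA shares of GDM-LF (6.999 to 8.55%) lie below those of Lean-HFS (24.7 to 39.0%), and GDM-LF 2 is the highest library for acinar markers and for cytokines.

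No gene passed the test between the exposures. Of 12336 genes tested with limma, 0 had a Benjamini-Hochberg adjusted p under 0.05 (0.0% called), the lowest adjusted p was 0.0955, and 4 genes were under 0.1. These were Anks1b, Ifi27, Mapre2 and the microRNA entry Mir1843b, which is described at the end beside the rRNA share. Since both groups are set against the same controls, this contrast is also the difference between the maternal exposure and the own-diet exposure. At an unadjusted p under 0.05 there were 2077 genes, 1060 higher in GDM-LF (8.59% of those tested) and 1017 lower (8.24%). With the deposited scaling, which does not centre the libraries on their common genes, that split was 1388 higher and 294 lower, and the median of all genes was 0.17 in place of 0.04. edgeR's quasi-likelihood test on the recovered reads also called 0 genes (2150 at an unadjusted p under 0.05), whereas DESeq2 called 282, of which 149 were higher and 133 lower. Leaving out GDM-LF 3 raised the limma calls from 0 to 332, leaving out GDM-LF 2 kept them at 0 with 1351 genes under the unadjusted 0.05, and leaving out Lean-HFS 1 kept them at 0 with 1178. Fitted with the rRNA precursor Rn45s as a covariate, 249 genes were under it. Against Lean-LF, the maternal exposure had 195 called genes (1.58%), 105 higher and 90 lower. The own-diet exposure had 0 (0.0%), with 269 at an unadjusted p under 0.05. These last 2 comparisons share their 3 control libraries, and their values are given below side by side only.

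Genes are therefore described here by their values. A scaled value is a gene's deposited signal divided by a library factor. It is not divided by transcript length, so levels are compared within a gene only. Differences are given as log2(scaled value + 1) of GDM-LF less Lean-HFS with the standard error (SE) of the fit, which understates differences of low genes. Beside each gene list stands the number of members at an unadjusted p under 0.05. Among all genes this share was 8.59% higher and 8.24% lower. For some lists the number whose libraries did not overlap is also given, against 9.9% with GDM-LF higher and 10.0% with GDM-LF lower. The lists were chosen with earlier results of these data known, and members of a list can vary together within a library. An excess over these shares is therefore a description and not a test.

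The 24 named genes of lowest p comprised 14 higher and 10 lower in GDM-LF, and in all 24 the groups did not overlap, a property their choice by p favours (limma adjusted p 0.0955 to 0.172). Anks1b (chr7:30603416-31774566 on build rn5, plus strand), which encodes a scaffold protein of synapses, had the lowest p. Its scaled values were 147, 145 and 132 in GDM-LF against 50.6, 50.1 and 59.2 in Lean-HFS, a difference of 1.39 ± 0.20 (limma adjusted p = 0.0955). Lean-LF lay between the groups at 79.3, 91.8 and 115. Anks1b was higher than the controls by 0.58 after maternal exposure and lower by a difference of -0.81 after own-diet exposure, and neither passed its own test (limma adjusted p = 0.0944 and 1.0).

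Of the 24 genes, 17 were called in GDM-LF against Lean-LF and 0 in Lean-HFS against Lean-LF, against 1.58% and 0.0% of all genes. The choice of the 24 by p favours the first count, since the same GDM-LF libraries and the same fit enter both tests. The second could only be 0, since that comparison called 0 of the 12336 genes. Mapre2 (chr18:14599144-15549590), which encodes a protein that binds microtubule ends, was at 102, 108 and 136 in GDM-LF against 244, 263 and 221 in Lean-HFS (difference -1.08 ± 0.18), with Lean-LF at 259, 214 and 183. Sphk1, the kinase that makes sphingosine 1-phosphate, was at 131, 250.4 and 211 in GDM-LF against 47.5, 76.4 and 60.1 in Lean-HFS. Ppp1r17, an inhibitor of protein phosphatases, was at 45.5, 35.9 and 32.3 in GDM-LF against 9.86, 7.16 and 1.82 in Lean-HFS. In each of these genes all 3 GDM-LF libraries lay outside the Lean-HFS range and outside the Lean-LF range as well. Nt5e, the surface enzyme that turns AMP into adenosine, was at 249, 192 and 191 in GDM-LF against 95.4, 111 and 122 in Lean-HFS. Tpp1, a lysosomal peptidase, was lower in GDM-LF, at 243, 185 and 239 in GDM-LF against 531, 412 and 444 in Lean-HFS, as was Cds1, an enzyme of phospholipid synthesis, at 123, 81.96 and 137 in GDM-LF against 202, 242 and 239.5 in Lean-HFS.

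**Figure D2:**
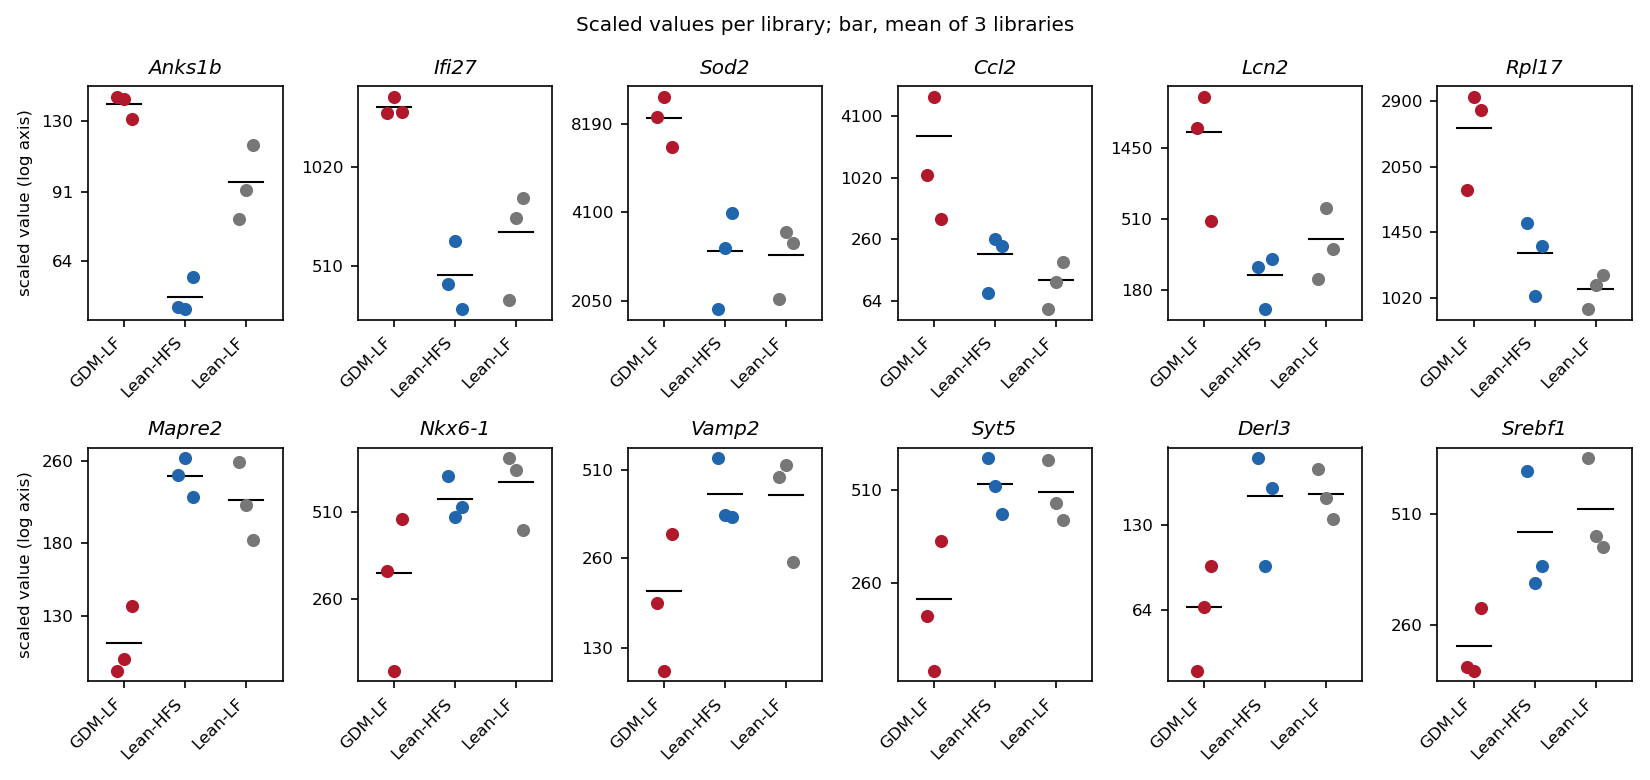
Scaled values of 12 genes in each library of GDM-LF, Lean-HFS and Lean-LF on log axes, with the mean of 3 libraries as a bar. The upper row holds genes higher in GDM-LF than in Lean-HFS and the lower row genes lower in GDM-LF, and no library of one group overlaps the other in Anks1b, Ifi27 or Mapre2.

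Chemokines, cytokines and other NF-kB targets stood higher after maternal than after own-diet exposure. Of 33 tested members of this list, 22 were higher in GDM-LF at an unadjusted p under 0.05 and 0 were lower, 17 did not overlap with GDM-LF higher, and the median difference was 1.54, against 0.04 over all genes. Set against Lean-LF, the median was 1.81 for the maternal exposure and 0.31 for the own diet. The mean log2 level of the list was 5.87, 7.61 and 5.55 in GDM-LF and 4.20, 4.65 and 5.15 in Lean-HFS. Without GDM-LF 2, the highest library, the median difference was 1.09 with 15 members at the unadjusted level. It was 0.97 with 10 members with the G libraries only, and 1.37 with 10 members with Rn45s as a covariate. Acinar markers were also highest in GDM-LF 2, and with their level as a covariate the cytokine median was 1.48 with 24 members higher.

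The promoters of 4 members are shown because they carry an NF-kB motif (3 G, any 2 bases, 3 T and 2 C, on either strand), in capitals, within 250 bases before the gene start. Sequences are from RefSeq on build GRCr8, read on the gene's own strand:
Cxcl1, chr14:17479322-17479571, minus strand: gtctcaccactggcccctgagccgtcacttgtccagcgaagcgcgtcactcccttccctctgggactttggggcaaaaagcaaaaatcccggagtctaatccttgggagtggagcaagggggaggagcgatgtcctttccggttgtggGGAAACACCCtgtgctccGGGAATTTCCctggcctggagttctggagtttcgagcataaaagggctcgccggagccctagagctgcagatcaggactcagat
Cxcl2, chr14:17467256-17467505, minus strand: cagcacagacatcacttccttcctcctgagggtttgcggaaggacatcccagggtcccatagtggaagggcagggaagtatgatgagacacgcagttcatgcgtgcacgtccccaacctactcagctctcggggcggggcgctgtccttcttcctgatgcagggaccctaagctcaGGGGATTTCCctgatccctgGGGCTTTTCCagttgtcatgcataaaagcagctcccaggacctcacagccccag
Ccl20, chr9:91836909-91837158, plus strand: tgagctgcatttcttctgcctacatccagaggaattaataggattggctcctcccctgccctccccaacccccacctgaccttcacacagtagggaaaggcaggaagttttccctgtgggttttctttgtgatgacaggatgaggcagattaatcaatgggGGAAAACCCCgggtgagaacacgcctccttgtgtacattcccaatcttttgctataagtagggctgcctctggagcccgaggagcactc
Nfkbia, chr6:78597073-78597322, minus strand: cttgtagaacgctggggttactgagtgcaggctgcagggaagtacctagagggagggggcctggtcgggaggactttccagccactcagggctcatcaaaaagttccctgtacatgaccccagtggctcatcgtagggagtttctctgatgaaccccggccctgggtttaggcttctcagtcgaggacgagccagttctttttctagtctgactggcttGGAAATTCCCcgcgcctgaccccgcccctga
The motif was found in 8 of the 24 list promoters in the RefSeq table (33.3%) and in 1.3% of all 33469 promoters of the same length. A match is a description of the sequence only.

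Ccl2, the chemokine that draws monocytes, was at 1099.7, 6321 and 404 in GDM-LF against 77.1, 258 and 224 in Lean-HFS (difference 3.09 ± 0.85, limma adjusted p = 0.186). Cxcl1 and Cxcl2 attract neutrophils. Cxcl1 was at 181, 1823 and 176 in GDM-LF against 13.4, 74.03 and 52.4 in Lean-HFS, and Cxcl2 at 66.99, 610.2 and 81.01 in GDM-LF against 9.86, 17.1 and 21.9 in Lean-HFS. In all 3 chemokines GDM-LF 2 held the highest value, and the lowest GDM-LF library still exceeded the highest Lean-HFS library. Ccl20, which attracts lymphocytes and dendritic cells, was at 14.3, 22.7 and 12.8 in GDM-LF against 2.69, 3.18 and 6.37 in Lean-HFS. Il6, the cytokine interleukin 6, was at 267, 1481 and 400.4 in GDM-LF against 43.9, 114 and 107 in Lean-HFS. GDM-LF exceeded Lean-HFS in every library for both genes.

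Feedback and protective targets of NF-kB, and the growth factor gene Csf3, stood in the same direction. Sod2 (chr1:51827380-51834232), the mitochondrial superoxide dismutase, was at 8633, 10113 and 6831 in GDM-LF against 1922, 3101 and 4068 in Lean-HFS (difference 1.54 ± 0.30, limma adjusted p = 0.169). Birc3, an inhibitor of apoptosis, was at 168, 493 and 128 in GDM-LF against 46.6, 61.3 and 81.05 in Lean-HFS. Nfkbia, which encodes the inhibitor that holds NF-kB in the cytoplasm, was at 347, 1245 and 367 in GDM-LF against 144, 346 and 334 in Lean-HFS. Its values in GDM-LF 1 and 3 lay close to those in Lean-HFS 2 and 3. Csf3, a growth factor of granulocytes, was under 1 in every Lean-HFS library, at 10.9, 58.9 and 5.24 in GDM-LF against 0.45, 0.8 and 0.91 in Lean-HFS. Members that encode NF-kB subunits had log2 differences of 0.62 for Nfkb1, 0.74 for Nfkb2 and -0.12 for Rela.

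Interferon response genes were also higher in GDM-LF. Of 36 tested members, 22 were higher at an unadjusted p under 0.05, 0 were lower, and 17 did not overlap, with a median difference of 1.03. The median was 1.18 for GDM-LF and 0.17 for Lean-HFS when each was set against Lean-LF. This list leaned more on GDM-LF 2: without it the median was 0.54 and 8 members were higher at the unadjusted level, and with the G libraries only it was 0.42 with 3 members. With Rn45s as a covariate it was 0.87 with 5 members, and without Lean-HFS 1 the count was 13.

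Ifi27 and Psmb10 show the interferon-stimulated response element (3 T, a C, any 2 bases, 3 T and a C, on either strand), in capitals, within 250 bases before the gene start (RefSeq, GRCr8):
Ifi27, chr6:128355062-128355311, plus strand: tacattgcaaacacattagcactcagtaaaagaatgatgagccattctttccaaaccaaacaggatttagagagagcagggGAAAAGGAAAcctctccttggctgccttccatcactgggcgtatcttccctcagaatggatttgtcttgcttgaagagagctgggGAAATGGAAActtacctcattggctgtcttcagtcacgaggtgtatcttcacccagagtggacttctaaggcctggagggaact
Psmb10, chr19:50743293-50743542, minus strand: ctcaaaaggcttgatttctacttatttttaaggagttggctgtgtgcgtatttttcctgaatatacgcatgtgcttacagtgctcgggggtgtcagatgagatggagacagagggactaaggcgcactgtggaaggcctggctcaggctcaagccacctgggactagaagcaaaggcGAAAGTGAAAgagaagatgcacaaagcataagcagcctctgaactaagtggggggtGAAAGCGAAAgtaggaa
This motif was found in 16 of the 26 list promoters in the table (61.5%) and in 3.41% of all promoters of that length. The list was chosen as interferon response genes, so this share describes the sequences only and not the difference between the groups. Rsad2 was among the promoters with the motif.

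Ifi27 (chr6:136548490-136554961 on rn5), an interferon-induced protein of mitochondrial and nuclear membranes, varied little between the GDM-LF libraries. It was at 1488, 1667 and 1500.4 in GDM-LF against 449, 609.8 and 377 in Lean-HFS, a difference of 1.72 ± 0.27 (limma adjusted p = 0.0976). Against Lean-LF, at 403, 714 and 823, Ifi27 rose by 1.32 after maternal exposure (limma adjusted p = 0.0477). Psmb10, a subunit of the immunoproteasome, was at 274, 478 and 333 in GDM-LF against 148, 199 and 173 in Lean-HFS. Isg15, a ubiquitin-like protein, was at 38.01, 564 and 48.95 in GDM-LF against 5.38, 19.5 and 20.03 in Lean-HFS, and Irf7, a factor that amplifies the response, was at 66.99, 491 and 43.7 in GDM-LF against 14.8, 19.5 and 25.9 in Lean-HFS. For both, the value in GDM-LF 2 was several times that of GDM-LF 1 and 3, which still lay above Lean-HFS. Rsad2, an antiviral enzyme, did not share this: its values were 79.4, 593 and 77.5 in GDM-LF against 39.9, 74.03 and 222 in Lean-HFS, and without GDM-LF 2 its log2 difference was -0.15.

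Acute phase and complement genes made up the third inflammatory list. Of 17 tested members, 12 were higher in GDM-LF at an unadjusted p under 0.05, 0 were lower, and 8 did not overlap. The median difference was 1.37, and 1.01 with 9 members higher without GDM-LF 2. It was 0.63 with 3 members with the G libraries only and 0.84 with 5 members with Rn45s as a covariate. Set against Lean-LF, the median was 1.30 for GDM-LF and -0.05 for Lean-HFS. Lcn2, the iron-scavenging lipocalin of inflamed epithelia, was at 1923, 3068 and 495 in GDM-LF against 251, 136 and 282 in Lean-HFS (difference 2.74 ± 0.57, limma adjusted p = 0.169). C3, the central complement component, was at 427, 1041 and 83.05 in GDM-LF against 33.6, 10.8 and 71.9 in Lean-HFS. The 2 genes spread widely inside GDM-LF, with library 3 the lowest in both. Orm1 and Hp, acute phase plasma proteins, were low everywhere. Orm1 was at 8.28, 14.03 and 4.37 in GDM-LF against 0, 0.8 and 0 in Lean-HFS, and Hp at 6.40, 9.82 and 9.62 in GDM-LF against 1.79, 0.4 and 0.91 in Lean-HFS.

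**Figure D3:**
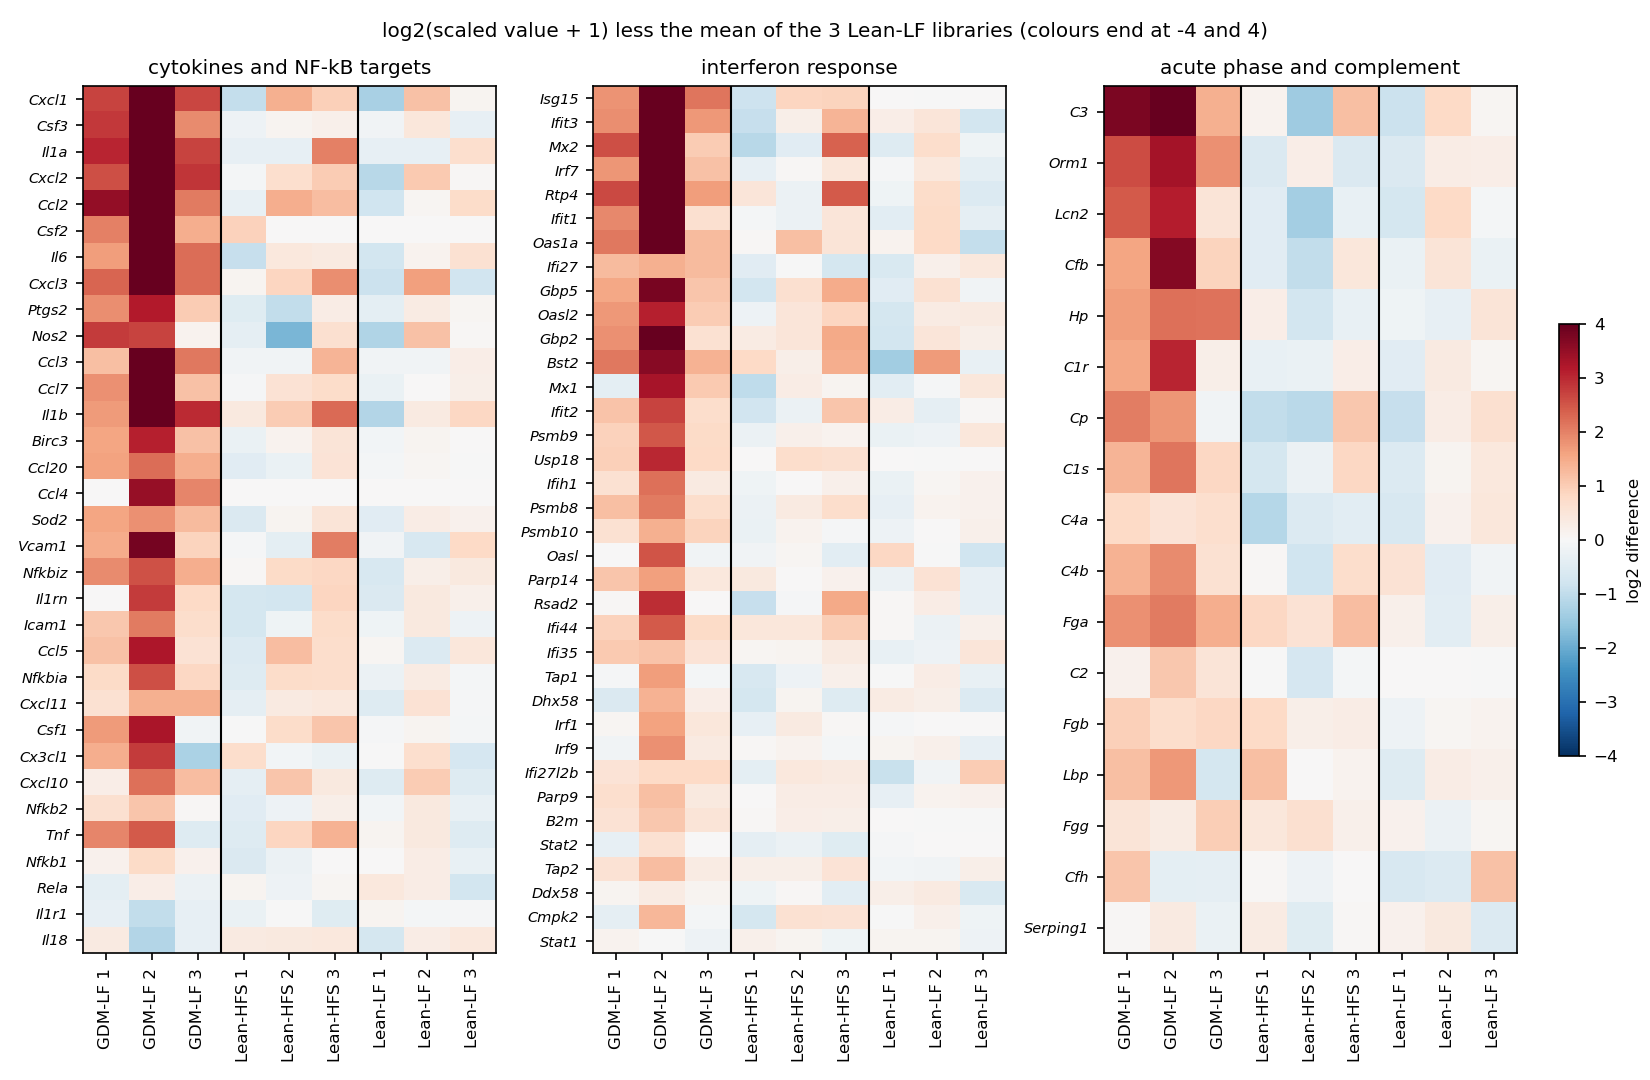
Every tested member of the 3 inflammatory lists in the 9 libraries of GDM-LF, Lean-HFS and Lean-LF, coloured by log2(scaled value + 1) less the Lean-LF mean. GDM-LF 2 is the darkest column, GDM-LF 1 and 3 are mostly red, and Lean-HFS 1 and 2 stay close to the controls. Lean-HFS 3 lies higher. Its mean log2 level in the cytokine list was 5.15, against 5.55 in GDM-LF 3 and 4.75 in the highest Lean-LF library.

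Markers of immune, exocrine, stromal and blood cells are given beside these lists, and their part in the inflammatory lists was not tested, acinar markers apart. Of 21 tested macrophage markers 0 were higher and 1 was lower at an unadjusted p under 0.05, and their summed scaled values ranged from 127 to 901 in GDM-LF and from 346 to 903 in Lean-HFS. Cx3cr1, the fractalkine receptor of resident macrophages, was at 0, 1.12 and 4.66 in GDM-LF against 13.9, 2.79 and 14.1 in Lean-HFS, the lowest difference of the list. Cd14, a receptor for bacterial lipopolysaccharide, had the highest, at 27.5, 106 and 31.8 in GDM-LF against 13.9, 11.2 and 35.5 in Lean-HFS. The macrophage median of -0.38 was 0.31 without GDM-LF 1, with 1 member higher and 0 lower. Only 6 of 20 listed lymphocyte markers were tested, with a summed value of 41.1 to 97.1 in GDM-LF and 28.7 to 55.6 in Lean-HFS, and Cd5, Il7r and Gzmb were at 0 in both groups. Among 17 duct markers, 5 were higher in GDM-LF and 0 lower, with a median of 0.55 that became -0.01 without GDM-LF 2. Their count was 0 without GDM-LF 2, 8 without GDM-LF 3, 3 without GDM-LF 1, 2 without Lean-HFS 1 and 1 without Lean-HFS 2. Krt19, a duct keratin, was at 243, 404 and 178 in GDM-LF against 70.8, 39.8 and 175 in Lean-HFS. Of 32 acinar markers 0 passed the unadjusted level in either direction, and their summed values ranged from 45710.0 to 813900.0 in GDM-LF and from 50480.0 to 275600.0 in Lean-HFS. The acinar median was 0.27. It was -1.05 without GDM-LF 2, with 5 members lower and 0 higher, and 1.01 without GDM-LF 3, with 6 higher and 1 lower. Erythrocyte markers had a median of 1.87 over 9 tested members, with 3 higher, 1 lower and 0 that did not overlap with GDM-LF higher. Their summed values ranged from 401 to 10640.0 in GDM-LF and from 145 to 1355 in Lean-HFS, with GDM-LF 2 the highest library, and the median was 0.48 without it. Adipocyte markers had a median of 0.66, with 2 of 6 higher and 3 that did not overlap, and their mean log2 level was 5.23, 5.45 and 4.85 in GDM-LF against 4.34, 4.73 and 4.59 in Lean-HFS (exact permutation test, two-sided, p = 0.1, the lowest this design can give). Stellate cell, fibroblast and matrix markers had a median of 0.41, with 1 of 22 higher and 0 lower. Their mean log2 level was 8.33, 6.31 and 5.91 in GDM-LF against 6.55, 5.52 and 6.87 in Lean-HFS, and without GDM-LF 1, the highest library, the median was -0.28. With the G libraries only, the medians were -0.33 for erythrocyte, -0.20 for duct, -0.38 for stellate and matrix and -1.07 for acinar markers. They were 0.13 for macrophage and 0.38 for adipocyte markers.

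Transcription factors, receptors and glucose sensors that define beta cells stood lower in GDM-LF. Of 23 tested members, 9 were lower at an unadjusted p under 0.05, 0 were higher, and 7 did not overlap with GDM-LF lower. The median difference was -0.48, and the medians against Lean-LF were -0.61 for GDM-LF and -0.16 for Lean-HFS. Nkx2-2, a transcription factor that holds beta cell fate, was at 112, 101 and 149.8 in GDM-LF against 259, 182 and 174 in Lean-HFS (difference -0.76 ± 0.23). Nkx6-1, another such factor, was at 324, 149.6 and 484 in GDM-LF against 672, 489.6 and 527 in Lean-HFS, and Foxa2, a factor of the pancreatic programme, at 292, 316 and 439 in GDM-LF against 518, 484 and 448 in Lean-HFS. In each of the 3, GDM-LF 3 came closest to Lean-HFS. Slc2a2, the glucose transporter GLUT2, was at 4507, 2879 and 6752 in GDM-LF against 8468, 8956 and 6063 in Lean-HFS, where GDM-LF 3 exceeded Lean-HFS 3. Glp1r, the receptor of the incretin GLP-1, was at 915, 513 and 1102 in GDM-LF against 1683, 1355 and 1181 in Lean-HFS. Vdr, the vitamin D receptor, was at 54.6, 49.1 and 142 in GDM-LF against 207, 116 and 159 in Lean-HFS, and Ucn3, a marker of mature beta cells, at 166, 144 and 217 in GDM-LF against 421, 209 and 218 in Lean-HFS. Pdx1, the factor that drives insulin transcription, overlapped between the groups, at 419, 454 and 813 in GDM-LF against 807, 734 and 513 in Lean-HFS.

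The counts of this list moved with single libraries. Without GDM-LF 1 the count at the unadjusted level was 5. Without GDM-LF 3, 13 members were lower and 0 higher, with a median of -0.57. With acinar marker level as a covariate 10 were lower and 1 was higher. Without GDM-LF 2, 1 member was higher and 2 were lower; without Lean-HFS 1, 1 was higher and 1 was lower; and with Rn45s as a covariate the count was 0 and the median -0.15. With the G libraries only the median was -0.20, with 1 member higher and 0 lower, and with the deposited scaling 1 was higher and 2 lower. The rRNA share moves with the groups, and its part in this result was not tested further.

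Insulin secretion and exocytosis genes had the lowest median of all lists, at -0.51. Of 26 tested members, 11 were lower in GDM-LF at an unadjusted p under 0.05 and 1 was higher, and 10 did not overlap with GDM-LF lower. Set against Lean-LF, the medians were -0.60 for GDM-LF and -0.07 for Lean-HFS. Syt5, a calcium sensor of dense-core granules, was at 205, 138 and 351 in GDM-LF against 639, 523 and 428 in Lean-HFS (difference -1.28 ± 0.29). Vamp2, the granule SNARE, was at 183, 109 and 313 in GDM-LF against 557, 361 and 354 in Lean-HFS, and Rab3a, a GTPase that brings granules to the membrane, at 85.1, 62.3 and 105 in GDM-LF against 179, 159 and 139 in Lean-HFS. Ptprn, the granule membrane protein IA-2, was at 5629.5, 3786 and 6576 in GDM-LF against 12808, 8406 and 7642 in Lean-HFS. In all 4 genes every GDM-LF library lay below every Lean-HFS library. The member that was higher, Vamp8, is a SNARE of other vesicles and is also abundant in acinar cells; it was named after its values were seen, at 416, 766 and 519.9 in GDM-LF against 307, 379 and 316 in Lean-HFS. Without GDM-LF 2 the median was -0.27 with 5 members under the unadjusted level, and with the G libraries only -0.13 with 1 member. With Rn45s as a covariate it was -0.19 with 1 member, and the count was 7 without Lean-HFS 1 and 5 with the deposited scaling. The list had 15 lower and 1 higher without GDM-LF 3, with a median of -0.71. It had 12 lower and 1 higher with acinar marker level as a covariate.

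Ion channels of beta cells gave 6 of 19 members lower and 0 higher, with a median of -0.39, and with Rn45s as a covariate 0 members and a median of -0.0005. The count was 2 without Lean-HFS 1 and 0 with the G libraries only. Hcn2, a pacemaker channel, was at 29.7, 13.8 and 36.4 in GDM-LF against 55.1, 67.7 and 56.5 in Lean-HFS. Neuronal and synaptic genes gave 9 of 30 lower and 2 higher, with a median of -0.32, and 2 higher and 4 lower without GDM-LF 2. With Rn45s as a covariate 2 were higher and 0 lower with a median of -0.08, and with the deposited scaling 3 were higher and 5 lower.

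The hormones themselves overlapped. Of 18 hormone and granule peptide genes, 2 were lower in GDM-LF at an unadjusted p under 0.05 and 0 higher. The SE of the fit was 2.63 for Ins1 and 1.68 for Ins2, so for these genes the count could register only very large differences. Ins1 was at 1034308, 831077 and 1187019 in GDM-LF against 1039489, 961792 and 861504 in Lean-HFS, Ins2 at 421632, 375899 and 514007 in GDM-LF against 500851, 586195 and 478877 in Lean-HFS. Gcg, the glucagon gene, was at 26953, 103091 and 66165 in GDM-LF against 72609, 53854 and 48380.2 in Lean-HFS, and Sst, the somatostatin gene, at 1495, 2173 and 1325 in GDM-LF against 1244, 3131 and 1321 in Lean-HFS. Ppy, pancreatic polypeptide, varied several-fold inside both groups, at 14026, 5459 and 18014 in GDM-LF against 4371, 17528 and 6317 in Lean-HFS. The 2 lower members were the granins Scg3 and Chga, which help form secretory granules, at 3844, 2762 and 5821 in GDM-LF against 9073, 9743 and 7325 in Lean-HFS and 1152, 1835 and 2913 in GDM-LF against 4936, 3663 and 2735 in Lean-HFS. Of 14 alpha cell markers 0 reached the unadjusted level, and of 9 delta and PP cell markers 1 did.

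**Figure D4:**
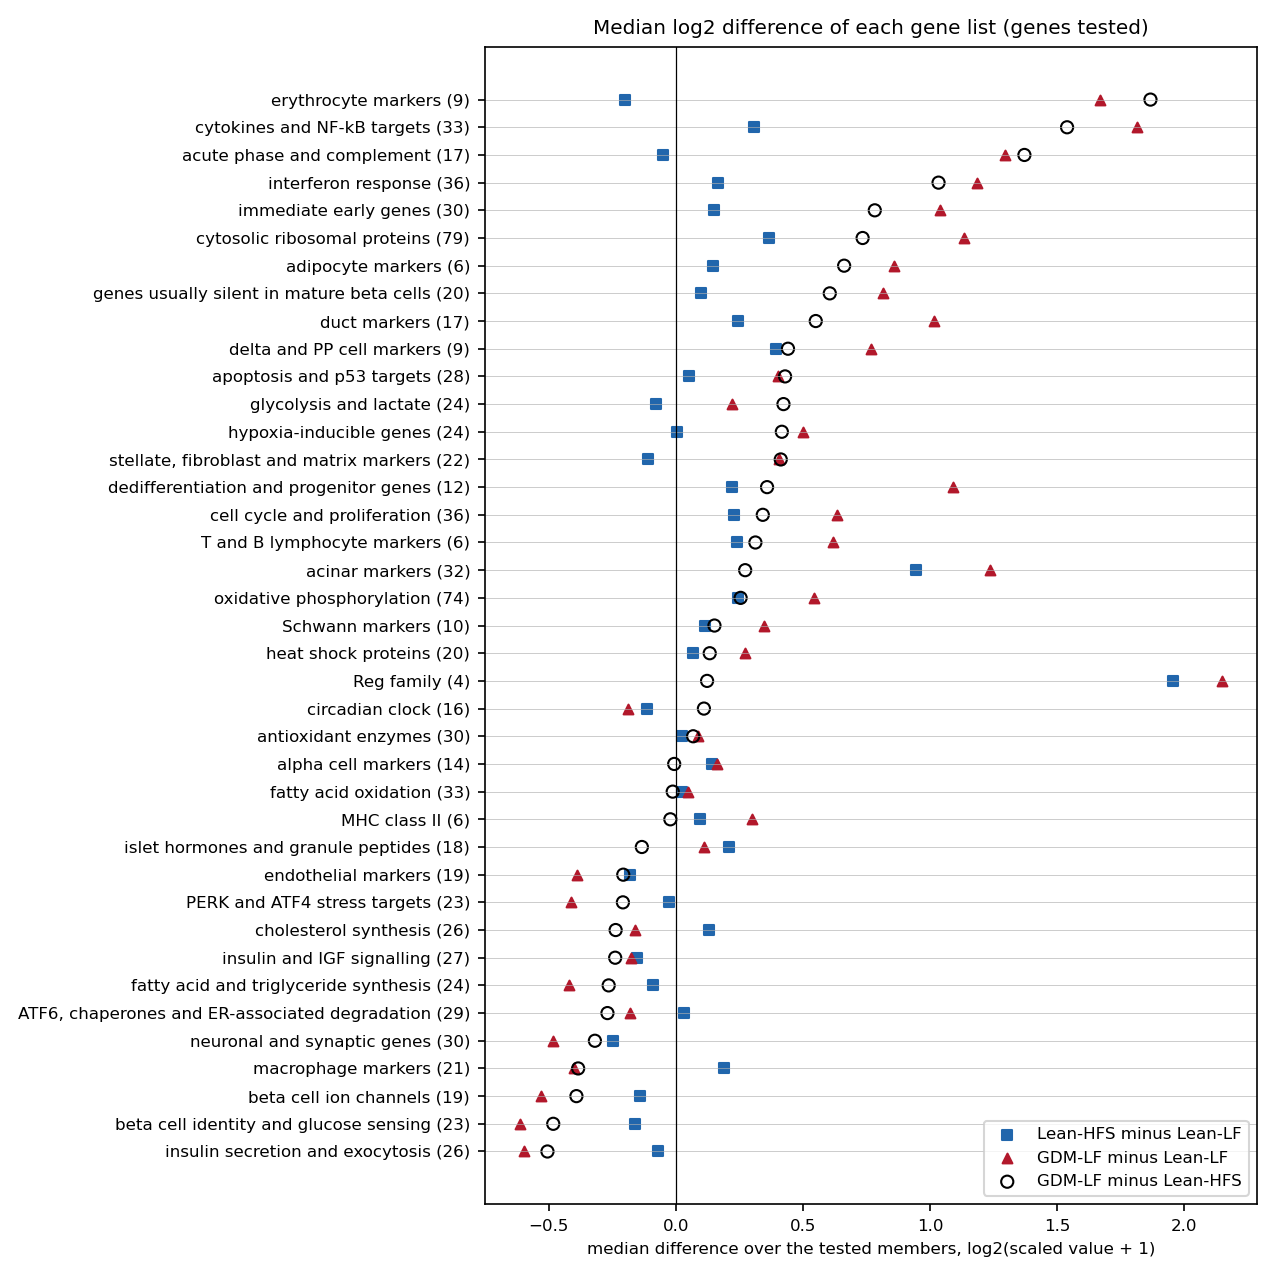
Median log2 difference of each gene list for GDM-LF less Lean-HFS (circles), GDM-LF less Lean-LF (triangles) and Lean-HFS less Lean-LF (squares), with the number of genes tested in brackets. Cytokines and NF-kB targets stand at 1.54, 1.81 and 0.31, and insulin secretion and exocytosis at -0.51, -0.60 and -0.07.

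Cytosolic ribosomal protein genes were the largest list that stood higher in GDM-LF. Of 79 members, 52 were higher at an unadjusted p under 0.05 and 0 lower, and 56 did not overlap, with a median of 0.73. Set against Lean-LF, the medians were 1.14 for GDM-LF and 0.37 for Lean-HFS. The mean log2 level of the list was 10.96, 11.51 and 10.65 in GDM-LF and 10.2, 10.32 and 10.43 in Lean-HFS. It was 9.72, 9.69 and 10.43 in Lean-LF, where library 3 stood level with the highest Lean-HFS library. Rpl17 was at 1811, 2973 and 2765 in GDM-LF against 1521, 1031 and 1348 in Lean-HFS, and Rps14 at 6565, 9603 and 3035 in GDM-LF against 1716, 2250.4 and 1909 in Lean-HFS. These are short transcripts, and the difference between groups was smaller, or lower, for longer transcripts (Spearman rho -0.205 over 12336 genes, which are not independent). Genes higher in GDM-LF at the unadjusted level had a median length of 1581 bases and those lower 2659, against 2118 over all. With the length trend removed the ribosomal median was 0.34, with 27 members higher and 1 lower, and with Rn45s as a covariate it was 0.14 with 1 member under the unadjusted level. Without GDM-LF 2 it was 0.50 with 22 members, with the G libraries only 0.33 with 4 members, and without Lean-HFS 1 the count was 33. Single ribosomal protein genes are uncertain, since near-identical copies can share reads.

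Oxidative phosphorylation genes gave 19 of 74 higher and 5 lower. The libraries of 30 did not overlap with GDM-LF higher, and those of 6 with GDM-LF lower. The median of the list was 0.25. That median became -0.04 with the length trend removed, where 4 were higher and 18 lower, and -0.08 with Rn45s as a covariate. The count in both directions together, 24, was 14 without GDM-LF 1, 11 without GDM-LF 2, 11 without Lean-HFS 1 and 10 without Lean-HFS 3. Cox7a2, a subunit of cytochrome oxidase, was at 1144, 985 and 988 in GDM-LF against 544, 664 and 538 in Lean-HFS, and Cox6a2, another subunit of it, at 4.52, 2.81 and 13.99 in GDM-LF against 17.5, 43.4 and 25.04 in Lean-HFS. The 2 subunits stood in opposite directions, each without overlap.

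Glycolysis and lactate genes gave 7 of 24 higher and 1 lower, with a median of 0.42. The count was 5 members in all without Lean-HFS 1 or without Lean-HFS 2. The libraries of 5 members did not overlap with GDM-LF higher, and those of 3 with GDM-LF lower. Ldha, the lactate dehydrogenase subunit that mature beta cells normally keep low, was at 2475, 1913 and 1592 in GDM-LF against 679.8, 580.3 and 1141 in Lean-HFS (difference 1.35 ± 0.33). Hk2, a hexokinase of high glucose affinity that these cells also normally lack, was at 87.7, 117 and 63.5 in GDM-LF against 23.8, 27.5 and 47.4 in Lean-HFS. Neither overlapped, and for Ldha the highest Lean-HFS library was Lean-HFS 3. Both belong to a list of genes usually silent in mature beta cells, of which 6 of 20 were higher and 2 lower. The median of that list was 0.61, and it was 0.32 without GDM-LF 2 and -0.15 with the G libraries only. Among hypoxia-inducible genes 8 of 24 were higher and 0 lower, and the count at the unadjusted level was 14 without GDM-LF 2, 4 without GDM-LF 1 and 5 without Lean-HFS 1 or without Lean-HFS 2. Higd1a, a mitochondrial protein induced by low oxygen, was at 533, 684 and 429 in GDM-LF against 161, 156 and 171 in Lean-HFS. Immediate early genes gave 9 of 30 higher and 0 lower, with a median of 0.78 that was 0.13 without GDM-LF 2. Their count was 3 without GDM-LF 2 and 5 without Lean-HFS 1, and 14 and 15 without GDM-LF 1 and GDM-LF 3. Fosb, one of them, was at 28.2, 282 and 25.4 in GDM-LF against 4.03, 11.2 and 9.56 in Lean-HFS. Of 28 apoptosis and p53 target genes, 7 were higher and 0 lower, among them Mdm2, the ubiquitin ligase that restrains p53, at 691, 883 and 668 in GDM-LF against 376, 509 and 529.5 in Lean-HFS. That count was 2 without GDM-LF 2 or without Lean-HFS 1, and 11 without Lean-HFS 3.

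Lipid synthesis lists had medians below 0. Fatty acid and triglyceride synthesis gave 7 of 24 lower and 0 higher, with a median of -0.26, and 2 under the unadjusted level without Lean-HFS 1. The count was 1 with the deposited scaling and 0 with Rn45s as a covariate. Srebf1, the transcription factor that drives fatty acid synthesis, was at 202, 198 and 288 in GDM-LF against 661, 336 and 372 in Lean-HFS. Lean-HFS 1 was far above Lean-HFS 2 and 3 in it. Cholesterol synthesis gave 3 of 26 lower, a share near the background, and 0 higher. Its median was -0.24, and 23 of the 26 differences were below 0. The count was 0 without Lean-HFS 1, with the deposited scaling or with Rn45s as a covariate, and 1 without GDM-LF 1. Fatty acid oxidation gave 1 of 33 higher and 2 lower, a share below the background in both directions, but 3 higher and 5 lower without GDM-LF 3. The count was 0 without GDM-LF 2 and 4 lower without Lean-HFS 2. Insulin and IGF signalling gave 4 of 27 lower and 0 higher, among them Irs2, the adaptor of the insulin receptor, at 645, 316 and 811 in GDM-LF against 1192, 1123 and 1084 in Lean-HFS. In that list the libraries of 6 members did not overlap with GDM-LF lower, and those of 1 with GDM-LF higher. The list had 4 higher and 5 lower at the unadjusted level without GDM-LF 3, and 7 lower without GDM-LF 1. It had 2 lower without GDM-LF 2 and 1 without Lean-HFS 2. It had 1 lower with the deposited scaling, and with Rn45s as a covariate the count was 0 and the median of -0.24 became 0.05.

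Endoplasmic reticulum (ER) stress genes leaned lower in GDM-LF. PERK and ATF4 targets gave 7 of 23 lower and 0 higher, and ATF6 targets, chaperones and ER-associated degradation 8 of 29 lower and 0 higher. Whatever their p, 9 PERK and ATF4 targets had differences above 0, up to 1.04, and 14 below. In the ATF6 list 5 were above 0 and 24 below. With Rn45s as a covariate 1 PERK and ATF4 target was higher and 0 lower, and 1 ATF6 member was lower. The PERK and ATF4 list had 10 lower and 1 higher without GDM-LF 3, and its median of -0.21 became 0.0095 without GDM-LF 1. The ATF6 count was 5 without GDM-LF 2 and 3 with the deposited scaling. Chac1, an enzyme that breaks down glutathione, was at 154, 174 and 229.6 in GDM-LF against 339.6, 354 and 322 in Lean-HFS, and Atf5, a stress transcription factor, at 294, 331 and 534 in GDM-LF against 659, 799 and 609 in Lean-HFS. Derl3, a channel component that exports misfolded proteins, was at 38.4, 65.7 and 92.1 in GDM-LF against 228, 92.3 and 178 in Lean-HFS, and Wfs1, the ER protein mutated in Wolfram syndrome, at 101, 103 and 199.9 in GDM-LF against 295, 213 and 259 in Lean-HFS. Lean-LF overlapped Lean-HFS in all 4 genes, for example at 207, 164 and 137 for Derl3. Heat shock proteins gave 3 of 20 higher and 1 lower, and antioxidant enzymes 4 of 30 higher and 1 lower, or 8 in all without GDM-LF 3 or without Lean-HFS 3. Cell cycle genes gave 4 of 36 higher and 2 lower, and clock genes 1 of 16 in each direction, which are shares near the background.

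**Figure D5:**
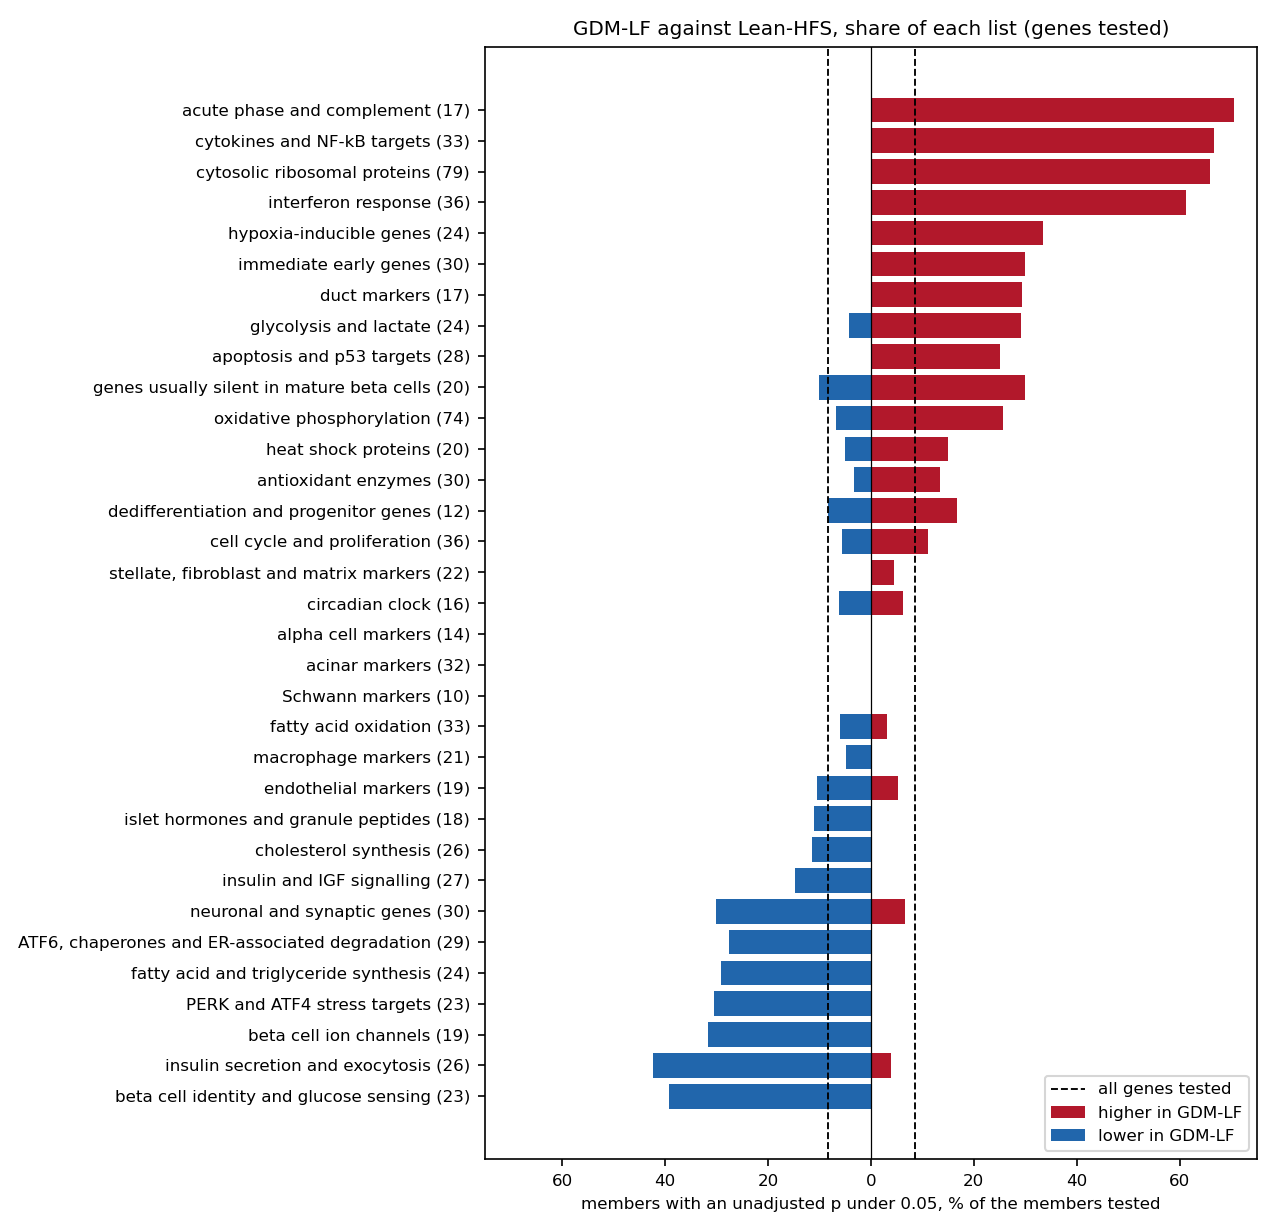
Share of the tested members of each list with at least 10 of them at an unadjusted p under 0.05, higher (red, right) or lower (blue, left) in GDM-LF than in Lean-HFS. Dashed lines mark the share over all genes, 8.59% higher and 8.24% lower.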

How the data were processed

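Islet RNA of 12 rat libraries in 4 groups of 3 was sequenced; groups and numbers come from the titles. Collagenase-digested islets were hand-picked, and directional libraries followed Ribo-Zero depletion of rRNA, per the labels' protocols. Per the submitters' processing notes, STAR 2.5.1b, HOMER 4.9 and DESeq2 (no version) were used. Per the file headers, the authors summed exon reads on both strands of rn5, so a gene and its antisense partner cannot be told apart. Values were deposited as a depth-scaled signal: the header names FPKM, but they were not divided by length. Whole reads were recovered for 100% of values of up to 1000 reads (tolerance 0.1).

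Libraries were scaled by the median ratio over 11335 of 17407 genes above 0 in all, with 3 rRNA entries left out. Genes with a mean of at least 1 were tested (12336) with limma 3.58.1 in R 4.3.3 on log2(scaled value + 1), 1 mean per group over 12 libraries, with a mean-variance trend and Benjamini-Hochberg adjustment (threshold 0.05). The design had assumed normalized values; edgeR 4.0.16 and DESeq2 1.42.0 on recovered reads were 2 of 22 alternatives. The fit was tested on simulated data. No replicate pair agreed within sampling noise (chi-square of 29.8 or more per degree of freedom).

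The comparison and the 39 gene lists were chosen with earlier results of these data known. Named genes were the 24 of lowest p (none passed; provisional symbols left out), the 2 of lowest p in each list and 15 islet and marker genes, 104 in all. Results for 3 are not reported here, and the text describes only some of the others. Further genes named in the text, and promoters, were picked after their values were seen. RefSeq matched 16432 accessions; its table names GRCr8, so rn5 positions come from the deposited file.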

Additional observations from a re-analysis of the deposited data

How the results depend on the processing

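The count of called genes was 0 in the limma fit and moved under 6 of 22 alternatives. It was 282 with DESeq2, 14 with acinar marker level as a covariate, 6 with only the 6 libraries fitted, 5 with the replicate block and 4 with the deposited scaling. Leaving out 1 library gave 0 to 332 calls, and 332 came without GDM-LF 3. The count at an unadjusted p under 0.05 was 249 with Rn45s as a covariate and 588 without the libraries titled K, which leaves GDM-LF 3 alone in its group, assumed to vary like the others. Leaving out 1 library gave 1178 to 2979. Same-numbered libraries of the groups had deviations that correlated at 0.093, -0.246 and -0.501, so by this check the numbers do not pair the libraries. The insulin share, 2.19 percentage points lower in GDM-LF outside rRNA, was 5.46 higher with rRNA reads included. Of 2591 alternative values for the 118 named genes, 9 turned direction: Pdx1 (0.04 with Rn45s, 0.27 without K), Iapp (-0.14 with the length trend removed), Loxl4 (-0.18 without GDM-LF 2 and up to 2.28 with another library left out, -1.26 without K), Rsad2 (-0.15 without GDM-LF 2 and up to 1.49 with another left out, -0.17 without K), and without K Reg3g (-1.01) and Dcn (-0.0022). Another 146 became called, 61 with DESeq2 and 59 without GDM-LF 3. The medians of the cytokine, interferon, acute phase, ribosomal, beta cell identity, ion channel and exocytosis lists kept their direction under all 22 alternatives, that of the ion channels at -0.0005 with Rn45s. With 3 libraries a group, depth limits mainly genes with few reads, such as Csf3, Orm1 and Hp.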

Other observations

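The offspring exposed both ways, GDM-HFS, give values beside the single exposures. The mean log2 level of the cytokine and NF-kB list was 4.53, 5.10 and 4.84 in GDM-HFS, against 5.87, 7.61 and 5.55 in GDM-LF, 4.20, 4.65 and 5.15 in Lean-HFS and 4.06, 4.75 and 4.48 in Lean-LF. No GDM-HFS library reached the lowest GDM-LF library in that list. Slfn4, a gene of the Schlafen family, also lay below every GDM-LF library, at 3.15, 5.16 and 0.58 in GDM-HFS and 30.9, 63.4 and 20.98 in GDM-LF against 1.79, 0.8 and 5.01 in Lean-HFS. Other genes placed GDM-HFS with GDM-LF: Anks1b was at 128, 164 and 194 in GDM-HFS, Rpl35a at 425, 404 and 720.5 against 412, 781 and 338 in GDM-LF, and Tpp1 at 296, 234 and 239. These differences were not tested here.

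Entries singled out after their values were seen are given beside the rRNA share. By p between GDM-LF and Lean-HFS, Mir1843b ranked 3, LOC500035 8 and LOC310926 20. Their provisional symbols kept them out of the 24 named genes of lowest p. LOC500035 was at 0, 0 and 0 in GDM-LF against 45.7, 29.9 and 37.8 in Lean-HFS, at least 39.8-fold lower in GDM-LF (floor of 3 reads in each library), and it was at 24.8, 40.5 and 0.17 in Lean-LF, where rRNA took 11.3, 30.4 and 1.84% of reads, and at 0.9, 0 and 0 in GDM-HFS, where it took 4.34, 1.84 and 2.55%. LOC310926 was at 1536, 1825 and 969 in GDM-LF against 9847, 21389 and 25365 in Lean-HFS, and at 6521, 13930.3 and 900.5 in Lean-LF. Mir1843b ran the other way, at 105, 122 and 149 in GDM-LF against 5.38, 5.17 and 17.8 in Lean-HFS and 15.98, 24.4 and 131 in Lean-LF (limma adjusted p = 0.0976 for GDM-LF against Lean-HFS). In Lean-LF, where all 3 libraries share both diets, library 3, of the lowest rRNA share, stood apart from libraries 1 and 2 in each of these entries. The part of the rRNA share in these values was not tested.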
